A study of Equus caballus with 2 samples.

Results

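Cultured fibroblasts of the equine endometrium were examined for 9 genes that carry out the uptake, synthesis, transport, sensing and breakdown of retinoic acid. These genes were *STRA6*, *ALDH1A1*, *ALDH1A2*, *ALDH1A3*, *CRABP1*, *CRABP2*, *RARA*, *RARB* and *CYP26B1*. They were selected by symbol, and all 9 were found among the 21426 genes of the count matrices, each under 1 Ensembl identifier. The study exposed the fibroblasts to factors that are linked to fibrosis of the endometrium of mares. The control library and the library treated with transforming growth factor β1 (TGF-β1) were available here, and the cells given MFGE8 are not analysed here.

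Both libraries were droplet-based single cell libraries of endometrial fibroblasts at passage 3. The cells came from 4 mares in the mid-luteal phase with healthy or mildly fibrotic endometria, and were grown on collagen-coated hydrogels. Serum was lowered and then replaced by bovine serum albumin in both groups for the last 24 h. During these 24 h the control cells received nothing further and the treated cells received 10 ng/ml of human recombinant TGF-β1. For each group, the cells of the 4 mares were pooled into 1 library. The cells were not assigned to mares here, so each group was a single sample, and no test between groups was possible and no p-value is given. Library preparation and treatment cannot be told apart. All intervals given are at the 95% level and cover counting error only, not the spread between mares or cultures. Those of levels and ratios treat every counted transcript as independent, so they leave out the spread between cells as well.

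Retinol circulates bound to a plasma carrier and can enter a cell through the membrane receptor STRA6. Inside the cell, retinol is oxidised to retinal, and the retinaldehyde dehydrogenases of the ALDH1A family oxidise retinal to retinoic acid in a step that is not reversed. Cellular retinoic acid binding proteins carry the acid through the cytoplasm, CRABP2 mainly to the receptors in the nucleus, and enzymes of the CYP26 family break it down. In the endometrium, retinoids are known for their part in the differentiation of stromal cells and in the control of epithelial growth.

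Cells with at least 20000 unique molecular identifiers (UMIs, tags that mark single captured transcripts), 3500 or more genes, and less than 4% of their UMIs from mitochondrial genes were kept. This left 3865 of 4384 control barcodes (88.2%) and 4513 of 5124 TGF-β1 barcodes (88.1%), with 210497250 and 219731144 UMIs. The median cell held 50313 UMIs in the control and 43142 in the TGF-β1 library, and 2 barcodes of kept cells occurred in both. Doublets were not removed. All 7 fibroblast markers were found, with a summed level of 21419 counts per 1000000 UMIs (CPM) in the control and 21658 CPM in the TGF-β1 library, and *VIM* and *COL1A1* were detected in 100% of the cells of both. Within the list, *VIM* was at 4399 and 2240 CPM and *PDGFRA* at 50.5 and 16.7 CPM, while *COL1A1* was at 5608 and 6376 CPM. Of the other marker lists, the summed endothelial level was 1.34 and 1.38 CPM and the immune level 42.7 and 43.1 CPM. Nearly all of the immune level was *CD68*, at 42.6 and 43.1 CPM and detected in 56.9% and 55.4% of cells. *PTPRC*, the marker of all leukocytes, was at 1 and 0 UMIs. The summed perivascular level was 705 and 633 CPM, of which the intermediate filament desmin (*DES*) made up 646 and 569 CPM. *RGS5* was at 51.7 and 61.1 CPM, in 61.2% and 67.7% of cells, and *MCAM* was at 5.78 and 1.75 CPM. Of the 4 perivascular genes with a mean of 1 CPM or more, 2 were higher and 2 lower after TGF-β1. The summed epithelial level was 134 CPM in the control and 12.3 CPM in the TGF-β1 library, of which the keratin *KRT8* made up 114 and 4.48 CPM, while the defining epithelial genes *EPCAM* (1 and 3 UMIs) and *CDH1* (6 and 4 UMIs) were close to 0. The summed level of 8 cycling markers was 52.1 CPM in the control and 29.7 CPM in the TGF-β1 library. The part of these marker differences in the values of the retinoid genes was not tested, beyond the comparisons by *KRT8* and by cycling cells given with the cell states.

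Among the 9 retinoid genes, those of retinoic acid carriage and breakdown were higher in the TGF-β1 library, those of synthesis were lower, and the receptors *RARA* and *RARB* differed by less than the counting error over all cells. *CRABP2*, *CRABP1* and *CYP26B1* were more than 2-fold higher, and none of the 9 was more than 2-fold lower. Of the 6 members whose mean over both libraries was 1 CPM or more, 1 (*CRABP2*) was past 2-fold, against 6.91% of all 12116 genes at that level, with 3.45% higher and 3.46% lower. Of the 3 members below 1 CPM (*CRABP1*, *RARB* and *CYP26B1*), 2 were past 2-fold, where 20.5% of 2817 genes between 0.1 and 1 CPM were past 2-fold in either direction and 10.1% were higher. Genes at such low levels pass the limit more often, and these 2 members are read against that share. *STRA6*, *ALDH1A1*, *ALDH1A2* and *ALDH1A3* were lower after TGF-β1, all within 2-fold. The median log2 ratio of all genes with at least 1 CPM was -0.01.

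**Figure D1:**
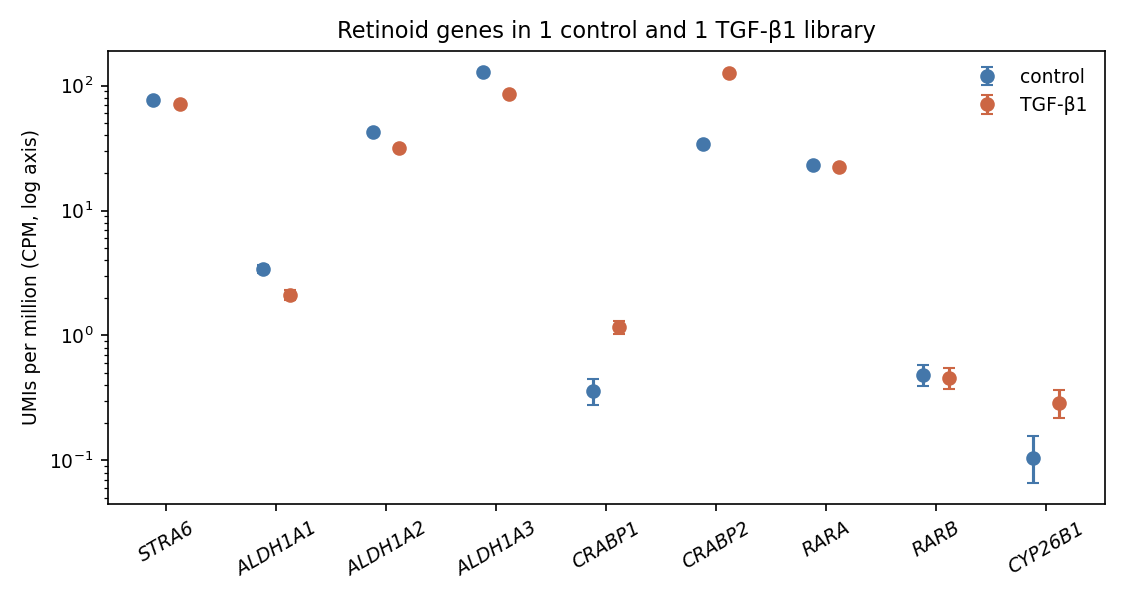
Level of the 9 retinoid genes, in counts per 1000000 UMIs (CPM, log axis), in the control (blue) and TGF-β1 (red) library, each point being 1 library and each bar an exact Poisson 95% interval that for many points is smaller than the point. *CRABP2* stood at 34.3 CPM in the control and 127 CPM after TGF-β1, *CRABP1* and *CYP26B1* were also higher after TGF-β1, and the 3 *ALDH1A* genes were lower.

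*STRA6* (ENSECAG00000016969), the membrane receptor for retinol uptake, was found at 76.2 CPM in the control and 71.1 CPM in the TGF-β1 library, from 16048 and 15619 UMIs. Ratios are TGF-β1 level over control level and are given as log2 values, and that of *STRA6* was -0.10 (-0.13 to -0.07), a difference beyond counting error but smaller than that of most members. For shares of cells, every cell was thinned at random to 20000 UMIs, since the libraries differed in depth. At this depth *STRA6* was detected in 60.6% of control cells (59.0 to 62.1%) and 58.9% of TGF-β1 cells (57.4 to 60.3%), and without thinning in 78.2% and 74.9%. Detected cells held 2.56 *STRA6* UMIs on average in the control and 2.44 after TGF-β1. No cell type that should lack these genes was present in either library, so a background share from free RNA in the droplets was not measured for any member.

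The 3 retinaldehyde dehydrogenases, which form retinoic acid, were all lower in the TGF-β1 library. Their summed level was 174 CPM in the control and 120 CPM after TGF-β1 (log2 ratio -0.54, -0.56 to -0.52). *ALDH1A3* (ENSECAG00000008871) was at 128 CPM in the control and 86.0 CPM after TGF-β1 (log2 ratio -0.58, -0.60 to -0.55). *ALDH1A2* (ENSECAG00000014750), the member known as the main enzyme of the embryo and of the endometrial stroma, was at 42.1 CPM and 31.4 CPM, a log2 ratio of -0.42 (-0.47 to -0.38). *ALDH1A1* (ENSECAG00000019343) was at 3.39 CPM and 2.12 CPM, from 714 and 465 UMIs, a log2 ratio of -0.68 (-0.85 to -0.51). The make-up of the family was nearly the same in both libraries: *ALDH1A3* held 73.8% of its UMIs in the control (73.4 to 74.3%) and 72.0% after TGF-β1 (71.4 to 72.5%), and *ALDH1A2* held 24.2% and 26.3%. These counts tag the 3′ end of transcripts and were not divided by length, so they describe each gene between libraries better than the order of genes.

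The lower *ALDH1A3* level lay in the amount per cell more than in the number of cells. *ALDH1A3* was detected in 62.5% of control cells (60.9 to 64.0%) and 59.2% of TGF-β1 cells (57.7 to 60.6%), without thinning in 77.2% and 74.7%, whereas detected cells held 4.14 UMIs on average in the control and 2.89 after TGF-β1. Counting only cells with 2 or more UMIs, the shares were 44.7% and 36.5%. Cells with 10 or more *ALDH1A3* UMIs made up 5.51% of the control and 1.77% of the treated cells, and they held 31.4% and 13.9% of all its UMIs. If the UMIs were spread evenly over cells, *ALDH1A3* would be found in 92.5% of control cells, so its expression was uneven among the fibroblasts of both libraries. *ALDH1A2* was detected in 46.4% of control cells (44.9 to 48.0%) and 41.2% of TGF-β1 cells (39.8 to 42.7%), without thinning in 72.8% and 64.7%. At the thinned depth an even spread would have given 56.1% and 45.9%. *ALDH1A1* was detected in 5.82% of control cells (5.10 to 6.61%) and 3.55% of TGF-β1 cells (3.02 to 4.13%), without thinning in 9.96% and 7.47%. The highest cell held 18 *ALDH1A1* UMIs in the control, 5.41% of all its thinned UMIs there, and 4 after TGF-β1.

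The *ALDH1A1* difference depended on the depth of the cells. Cells were divided into terciles of each library by their UMIs. In the lowest tercile its level was 5.69 CPM in the control and 1.64 CPM after TGF-β1 (log2 ratio -1.80, -2.17 to -1.43). In the highest tercile it was 2.66 and 2.39 CPM, a log2 ratio of -0.16 with an interval that included 0 (-0.41 to 0.10). The *ALDH1A2* and *ALDH1A3* ratios were below 0 in each tercile, between -0.46 and -0.37 and between -0.72 and -0.49.

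*CRABP2* (ENSECAG00000016560), which carries retinoic acid to its nuclear receptors, had the largest ratio of the members, although the intervals of *CRABP1* and *CYP26B1* included it. It was found at 34.3 CPM in the control (33.5 to 35.1) and 127 CPM in the TGF-β1 library (125 to 128), from 7214 and 27827 UMIs. The log2 ratio was 1.89 (1.85 to 1.92), or 3.70-fold, and 99.2% of all genes with at least 1 CPM had a lower ratio. The difference had 2 components, more cells with the transcript and more transcripts in these cells. *CRABP2* was detected in 26.3% of control cells (24.9 to 27.7%) and 55.4% of TGF-β1 cells (54.0 to 56.9%), without thinning in 36.9% and 65.6%, which is 2.11-fold at the thinned depth. Detected cells held 2.77 UMIs on average in the control and 4.67 after TGF-β1, 1.69-fold. Cells with 10 or more *CRABP2* UMIs made up 0.595% of the control and 6.82% of the treated cells, and held 12.9% and 37.4% of its UMIs. The highest cell held 58 UMIs in the control and 46 after TGF-β1, so very high cells were present in both libraries. At the same level, an even spread would have put *CRABP2* in 51.8% of control cells and 92.5% of treated cells, whereas 44.6% of the treated cells held none.

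**Figure D2:**
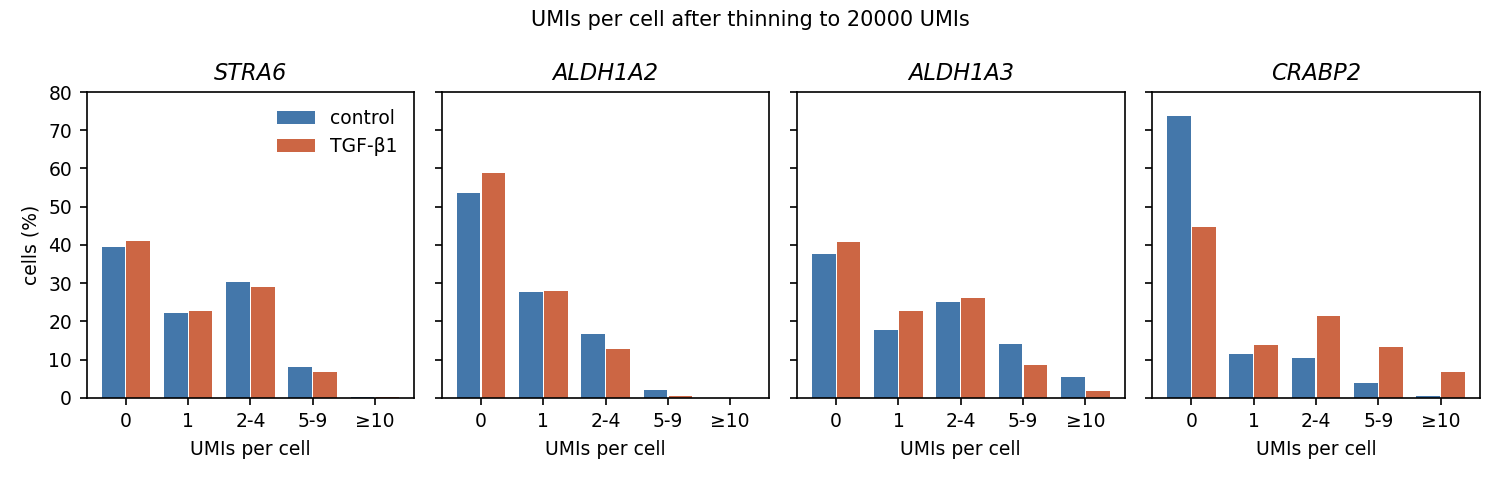
Share of cells (%) by UMIs per cell of *STRA6*, *ALDH1A2*, *ALDH1A3* and *CRABP2* after every cell was thinned to 20000 UMIs, in the control (blue) and TGF-β1 (red) library. *CRABP2* was at 0 UMIs in 73.7% of control cells and 44.6% of treated cells, and its upper classes were larger after TGF-β1, while for *ALDH1A3* the classes of 5 or more UMIs were smaller.

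*CRABP1* (ENSECAG00000030224), the second cellular retinoic acid binding protein, was close to the limit of detection in both libraries. It was found with 75 UMIs in the control, 0.356 CPM (0.280 to 0.447), and with 256 UMIs after TGF-β1, 1.17 CPM (1.03 to 1.32). The log2 ratio was 1.71 (1.33 to 2.10), or 3.27-fold. It was detected in 0.673% of control cells (0.440 to 0.984%) and 1.71% of TGF-β1 cells (1.35 to 2.13%), without thinning in 1.60% and 3.39%. At the thinned depth no control cell held more than 1 *CRABP1* UMI, and the highest TGF-β1 cell held 16, which was 14.5% of all its thinned UMIs there. *CRABP1* gave 1.03% of the *CRABP* UMIs in the control and 0.912% after TGF-β1, so *CRABP2* made up nearly all of them in both libraries.

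**Figure D3:**
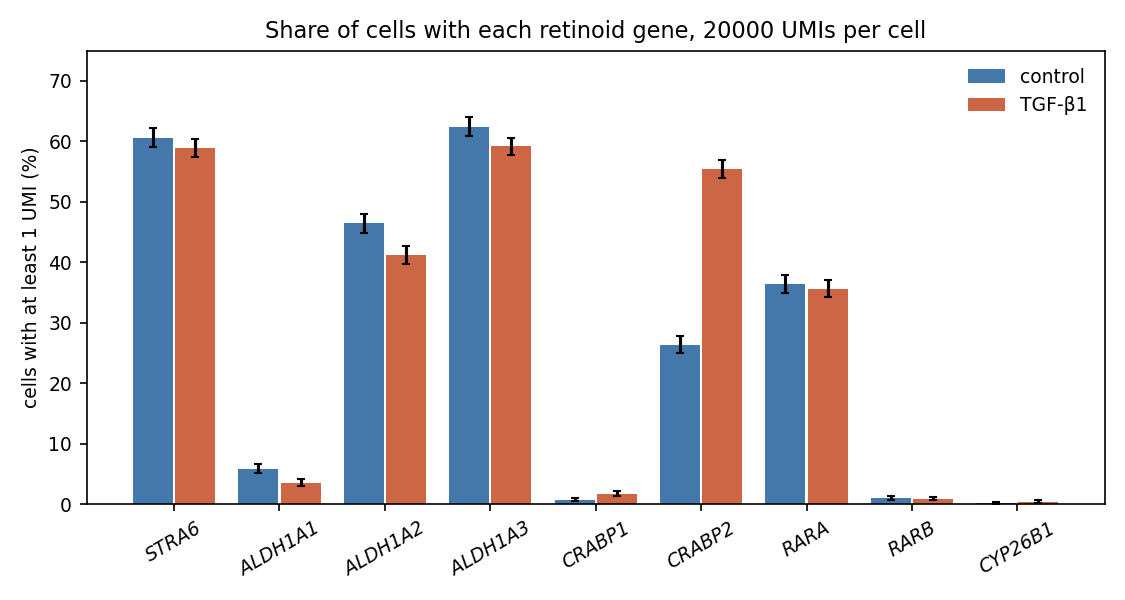
Share of cells (%) with at least 1 UMI of each retinoid gene after every cell was thinned to 20000 UMIs, in the control (blue) and TGF-β1 (red) library, with exact binomial 95% intervals as bars. *CRABP2* was detected in 26.3% of the control and 55.4% of the treated cells, *ALDH1A2* in 46.4% and 41.2%, and *ALDH1A3* in 62.5% and 59.2%.

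The retinoic acid receptors bind DNA together with retinoid X receptors and regulate genes according to the ligand. *RARA* (ENSECAG00000023358) was at 23.1 CPM in the control (22.5 to 23.8) and 22.4 CPM after TGF-β1 (21.8 to 23.0), so that the log2 ratio was -0.05 (-0.10 to 0.01). By terciles of UMIs per cell it was -0.16 (-0.28 to -0.04) in the lowest, -0.13 (-0.24 to -0.02) in the middle and 0.06 (-0.02 to 0.15) in the highest. It was detected in 36.4% of control cells (34.9 to 37.9%) and 35.6% of TGF-β1 cells (34.2 to 37.0%), and an even spread would have given 36.9% and 36.0%. *RARA* was therefore the most evenly spread of the 5 members with at least 10 CPM. Without thinning the shares were 68.5% and 61.2%, a gap that went with the greater depth of the control cells. *RARB* (ENSECAG00000016976), a receptor gene that retinoic acid itself is known to induce, was at 0.480 CPM in the control and 0.455 CPM after TGF-β1, from 101 and 100 UMIs. Its log2 ratio was -0.08 (-0.49 to 0.34), an interval that leaves room for a difference of that size in either direction. *RARB* was detected in 0.931% of control cells (0.653 to 1.29%) and 0.864% of TGF-β1 cells (0.615 to 1.18%), without thinning in 1.91% and 1.84%.

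*CYP26B1* (ENSECAG00000022724), which oxidises retinoic acid to inactive products, had the fewest UMIs of the members. It was found with 22 UMIs in the control, 0.105 CPM (0.0655 to 0.158), and with 63 UMIs after TGF-β1, 0.287 CPM (0.220 to 0.367). The log2 ratio was 1.46 (0.74 to 2.23), or 2.74-fold. It was detected in 0.155% of control cells (0.0570 to 0.338%) and 0.399% of TGF-β1 cells (0.237 to 0.630%), without thinning in 0.466% and 1.09%. Among terciles of cells by UMIs, the difference was beyond counting error in the highest. In the highest tercile by UMIs its log2 ratio was 2.69 (1.44 to 4.21), whereas it was 0.51 (-0.83 to 1.92) in the lowest tercile and 0.19 (-1.47 to 1.89) in the middle tercile. *CRABP2*, in contrast, was higher by 1.79 to 1.98 on the log2 scale in each tercile, and *CRABP1* by 1.03 to 2.00.

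Combinations of the genes were followed cell by cell at the thinned depth. The median control cell held UMIs of 2 of the 9 members and the median TGF-β1 cell of 3, and no cell of either library held more than 6. A cell with *STRA6*, any *ALDH1A* gene and *CRABP2* carries a transcript for uptake, synthesis and carriage. Such cells made up 14.4% of the control (13.3 to 15.5%) and 28.1% after TGF-β1 (26.8 to 29.4%), and those that also held *RARA* made up 5.41% (4.72 to 6.17%) and 10.6% (9.73 to 11.5%). Of these genes, only *CRABP2* was detected in a larger share of cells after TGF-β1, 55.4% against 26.3% in the control. The larger shares of both combinations therefore mostly restate the *CRABP2* difference, and the number of members per cell includes it too. Cells with none of *STRA6*, *ALDH1A* and *CRABP2* made up 6.39% and 5.03%. At least 1 *ALDH1A* gene was found in 80.4% of control cells (79.2 to 81.7%) and 77.6% of TGF-β1 cells (76.4 to 78.9%), and 2 or more in 32.4% (30.9 to 33.9%) and 25.3% (24.0 to 26.6%). The lower share lay in cells with both *ALDH1A2* and *ALDH1A3*, which made up 29.5% of the control and 23.7% of the TGF-β1 library, whereas cells with *ALDH1A3* and no *ALDH1A2* made up 33.0% and 35.5%. *CRABP2* was also detected in cells without a detected synthesis gene. It was found in 55.9% of TGF-β1 cells with any *ALDH1A* gene (54.2 to 57.5%) and in 53.9% of those without (50.8 to 57.0%). In the control the shares were 27.1% (25.6 to 28.7%) and 23.0% (20.1 to 26.2%).

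Most pairs of members occurred together about as often as their separate shares would give. The observed number of cells with both genes was divided by the number from the product of the shares, for pairs of genes found in at least 1% of cells. This ratio lay between 0.970 and 1.33 over 15 pairs in the control and between 0.896 and 1.41 over 21 pairs in the TGF-β1 library. The intervals of the shares with and without the partner gene were apart for 2 pairs in the control and 4 in the TGF-β1 library. The 6 pairs with *CRABP1*, which include 2 of these 4 and the highest ratio, were examined after TGF-β1 only, since *CRABP1* was below 1% of cells in the control, so the counts and ranges of the libraries cannot be compared. *STRA6* and *CRABP2* were such a pair in both, with ratios of 1.11 and 1.11. In the control, *CRABP2* was found in 29.1% of cells with *STRA6* (27.3 to 31.0%) and 22.0% of cells without (19.9 to 24.2%). After TGF-β1 it was found in 61.4% of cells with *STRA6* (59.6 to 63.3%) and 46.8% of cells without (44.5 to 49.1%). *CRABP2* was thus higher after TGF-β1 in cells with and without detected *STRA6*, and the share with *CRABP2* was larger in cells with 2 to 4 *STRA6* UMIs than in cells with none, at 30.1% against 22.0% in the control and 63.5% against 46.8% after TGF-β1.

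**Figure D4:**
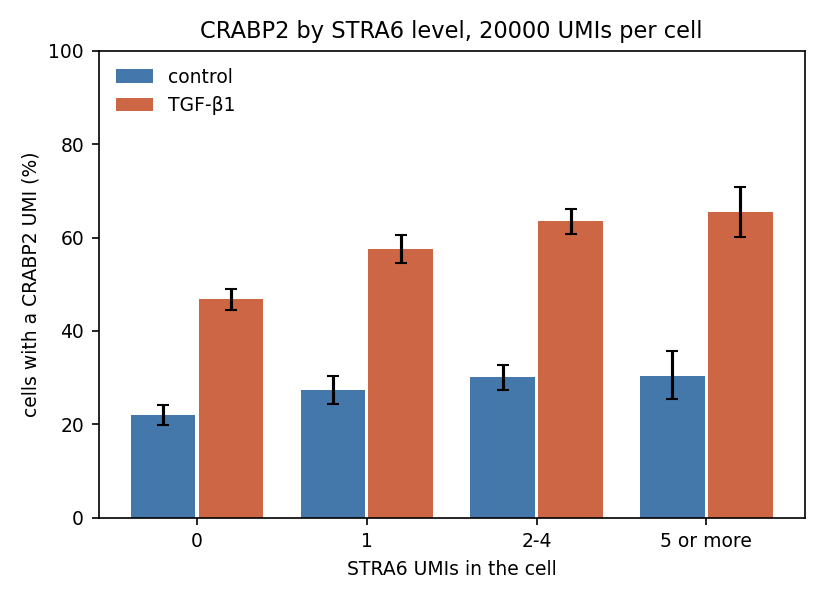
Share of cells (%) with at least 1 *CRABP2* UMI by the number of *STRA6* UMIs in the same cell (0, 1, 2 to 4, 5 or more), after thinning to 20000 UMIs, in the control (blue) and TGF-β1 (red) library, with exact binomial 95% intervals as bars. The share was 22.0% at 0 and 30.4% at 5 or more *STRA6* UMIs in the control, and 46.8% and 65.5% after TGF-β1.

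The second pair in the control was *ALDH1A1* with *CRABP2*, at a ratio of 1.33. *CRABP2* was found in 35.1% of the 225 control cells with *ALDH1A1* (28.9 to 41.7%) and in 25.8% of the others (24.4 to 27.2%), while after TGF-β1 the ratio was 0.981. After TGF-β1, *CRABP1* was found in 2.41% of cells with *STRA6* (1.86 to 3.06%) and 0.701% of cells without (0.374 to 1.20%), a ratio of 1.41. *CRABP2* was found in 71.4% of the 77 TGF-β1 cells with *CRABP1* (60.0 to 81.2%) and in 55.1% of the others (53.7 to 56.6%), a ratio of 1.29. *ALDH1A3* went the other way, found in 56.8% of TGF-β1 cells with *STRA6* (54.9 to 58.7%) and in 62.5% of cells without (60.3 to 64.7%), a ratio of 0.961. Computed within rebuilt clusters and summed, the ratios were similar, 1.11 and 1.09 for *STRA6* with *CRABP2* in the control and the TGF-β1 library. Without thinning they were 1.07 and 1.07 for *STRA6* with *CRABP2*, and 1.11 and 1.04 for *ALDH1A1* with *CRABP2*, in the control and the TGF-β1 library. After TGF-β1 they were 1.21 for *STRA6* with *CRABP1*, 1.27 for *CRABP1* with *CRABP2* and 0.989 for *STRA6* with *ALDH1A3*. All these cells shared 2 libraries, and within-library correlations between the 5 members found in at least 10% of cells were weak, at most 0.185 (*STRA6* with *CRABP2* after TGF-β1).

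The cells were grouped again into 7 clusters after integration of both libraries, with the 9 members left out of the genes used for clustering. Cluster 0 (1170 control and 1218 TGF-β1 cells) was led by *EPHA6*, *NLGN1* and *COL4A3*, cluster 1 (910 and 1251 cells) by *CRABP2*, *IGFBP3* and *DLK1*, and cluster 2 (655 and 1031 cells) by *FGF14*, *NPFFR2* and *CA8*. Cluster 3 (736 and 619 cells) was led by *SPP1*, *MATK* and *KRT7*, and cluster 4 (160 and 180 cells) by *CFD*, *CRABP2* and *CDC42EP2*. Cluster 5 (134 and 157 cells) was cycling-like, with all 8 cycling markers more than 2-fold higher than in other cells, and cluster 6 (100 and 57 cells) was led by *CA4*, *KRT1* and *SUSD4*. The clusters were not matched to those of the study. Each library pooled the cells of several mares, and the study reported a cluster made up almost wholly of cells of a single mare. Differences among clusters, uneven spread and co-detection within a library therefore cannot be told apart here from differences between mares.

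*CRABP2* was more than 2-fold higher after TGF-β1 in each of the 7 clusters, with log2 ratios between 1.64 and 2.57. Its level nevertheless differed widely among the clusters of 1 library, 12.5-fold in the control and 9.66-fold after TGF-β1. Cluster 4 was highest in both, at 84.8 CPM in the control and 310 CPM after TGF-β1, and cluster 3, which was led by keratins and *SPP1*, was lowest in both, at 6.77 and 32.1 CPM. *CRABP2* was found in 43.8% of the control and 73.3% of the treated cells of cluster 4, and in 9.38% and 28.6% of cluster 3. The TGF-β1 level of cluster 3 was thus below the control level of clusters 0, 1 and 4. The largest ratio, 2.57 (2.37 to 2.78), was that of the cycling-like cluster 5, from 23.7 to 141 CPM. *CRABP1* was more than 2-fold higher in all 7 clusters (log2 ratios of 1.11 to 2.64), from at most 70 UMIs in any cluster, and in cluster 4 its interval included 0. When the cells were divided into 11 clusters, *CRABP1* had a ratio in 9, of which 8 were past 2-fold, and *CRABP2* was past 2-fold in all 11.

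*ALDH1A2* was lower after TGF-β1 in all 7 clusters, with log2 ratios between -0.56 and -0.07, and *ALDH1A3* in 6 of 7, with ratios between -0.86 (cluster 4) and 0.07 (cluster 6). In cluster 6 the intervals of both included 0. Both were highest in cluster 0, *ALDH1A2* at 53.6 CPM in the control and 41.5 CPM after TGF-β1 and *ALDH1A3* at 157 and 94.1 CPM. Cluster 4, with the highest *CRABP2* and *STRA6*, held the lowest *ALDH1A2* in both libraries, 26.2 and 20.6 CPM. *ALDH1A1* was unlike its relatives in its distribution. It was at 20.7 CPM in control cells of cluster 6 against 1.78 to 4.75 CPM in the other clusters, and was lower after TGF-β1 in 6 clusters, more than 2-fold in cluster 1 (-1.13) and cluster 6 (-1.55). In clusters 3, 4 and 5 of these 6 the interval included 0. In cluster 6 it was found in 20.0% of 100 control cells and 12.3% of 57 TGF-β1 cells.

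*STRA6* was lower in 4 clusters and higher in 3, with log2 ratios between -0.35 and 0.16, and was highest in cluster 4 in both libraries, at 125 and 121 CPM. The *RARA* ratios lay between -0.12 and 0.49, with intervals apart from 0 only in cluster 1 (lower) and cluster 6 (higher), and its level differed only 1.32-fold among control clusters and 1.55-fold among TGF-β1 clusters. *RARB* and *CYP26B1* had too few UMIs for a ratio in every cluster. Of the 22 control UMIs of *CYP26B1*, 12 were in cluster 0, and of the 63 TGF-β1 UMIs, 24 were in cluster 2 and 17 in cluster 0. Per UMI its TGF-β1 level was highest in cluster 6, at 2.82 CPM from 8 UMIs in 57 cells (1.22 to 5.56 CPM), against 0 UMIs in 100 control cells (interval up to 0.674 CPM). In cluster 2 its log2 ratio was 1.79 (0.37 to 3.53). *RARB* was at 2.56 CPM in control cells of cluster 6, from 14 UMIs and with detection in 2.00% of these 100 cells after thinning, and at most 0.803 CPM in any cluster after TGF-β1.

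**Figure D5:**
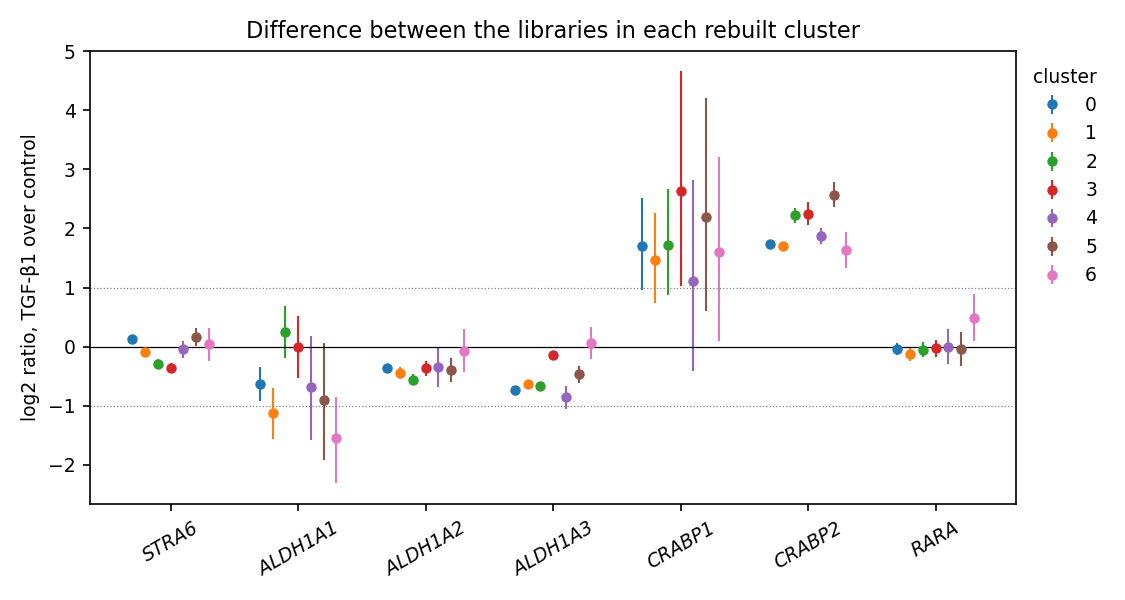
Log2 ratio of TGF-β1 over control for 7 retinoid genes in each of the 7 rebuilt clusters (colours), with exact 95% intervals for counting error as bars and dotted lines at 2-fold. All *CRABP2* points lay between 1.64 and 2.57, all *ALDH1A2* points between -0.56 and -0.07, and *STRA6* points lay on both sides of 0.

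The members were also compared between cells with and without genes that mark fibroblast states of these cultures. *STRA6* went with *CFD*, a serine protease of the complement system, in both libraries. It was found in 69.3% of control cells with *CFD* (67.0 to 71.4%) and 53.6% without (51.5 to 55.8%), and after TGF-β1 in 77.2% (73.9 to 80.3%) and 55.6% (54.0 to 57.2%). The number of cells with *CFD* itself was 1721 of 3865 in the control and 693 of 4513 after TGF-β1. *ALDH1A1* was found in 8.19% of control cells with *CFD* (6.94 to 9.59%) and 3.92% without (3.14 to 4.83%). *STRA6* also went with *KRT8*, found in 66.3% of control cells with it (63.3 to 69.3%) and 58.6% without (56.8 to 60.4%), and after TGF-β1 in 68.6% (60.7 to 75.7%) and 58.5% (57.1 to 60.0%). In control cells with *KRT8*, *ALDH1A1* was found in 3.25% (2.23 to 4.55%) against 6.70% without (5.82 to 7.68%), while *CRABP2* was found in 27.2% (24.4 to 30.1%) and 26.0% (24.4 to 27.7%), with intervals that overlapped.

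After TGF-β1, *CRABP2* went with *IGFBP3*, which encodes a binding protein of insulin-like growth factors. It was found in 67.3% of the 1788 cells with *IGFBP3* (65.1 to 69.5%) and in 47.6% of the 2725 cells without (45.7 to 49.5%), whereas for the growth factor *AREG* the shares were 50.6% of cells with it (47.5 to 53.7%) and 56.8% without (55.2 to 58.5%). In the control, *CRABP2* was found in 40.0% of the 180 cells with the adhesion molecule *VCAM1* (32.8 to 47.6%) and in 25.6% of the others (24.2 to 27.1%). This was not particular to *CRABP2*. Cells with *VCAM1* also more often held *STRA6* (72.8% against 60.0%), *ALDH1A3* (71.7% against 62.0%) and *ALDH1A1* (11.1% against 5.56%), with intervals apart, while those of the other members overlapped. *CRABP2* was also found in 30.5% of control cells with *CFD* and 22.9% without, and after TGF-β1 in 57.0% and 55.1%. After TGF-β1 only 1 cell held *VCAM1*. In cells with at least 3 cycling markers *CRABP2* was found in 19.2% of 78 control cells (11.2 to 29.7%) and 54.1% of 74 TGF-β1 cells (42.1 to 65.7%), and in 26.5% and 55.4% of the other cells.

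Likeness between genes was taken as the lower of the within-library Pearson correlations over cells, among 8146 genes found in at least 10% of cells of both libraries. It is given as a description, since cells share libraries and depth. *STRA6* was most like *CFD* (0.234 in the control and 0.222 after TGF-β1), *TFPI* (0.215 and 0.206) and *IGFBP7* (0.191 and 0.278). *CRABP2* was most like *FBLN1* (0.230 and 0.263), *COL6A3* (0.208 and 0.210) and *LSP1* (0.191 and 0.253). For *ALDH1A3*, *ADAMTS17* was among the 3 most alike (0.233 and 0.165). For *ALDH1A2* and *RARA*, the 3 most alike genes were under 0.2 in both libraries and are not named. The 3 genes most like *CRABP2* within libraries differed between libraries in unlike ways. *LSP1* was at 63.6 CPM in the control and 134 CPM after TGF-β1, *COL6A3* at 71.6 and 111 CPM, and *FBLN1* at 513 and 353 CPM.

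Of 57 other genes of retinoid binding, metabolism and response, 48 were found and 31 had a mean of 1 CPM or more. Of these, 16 were higher and 15 lower after TGF-β1, 1 in each direction by more than 2-fold, where 6.91% of all genes at that level were past 2-fold, and their median log2 ratio was 0.02. The number past 2-fold is thus near that of all genes. *FABP5* (ENSECAG00000008270), a fatty acid binding protein that also carries retinoic acid, was at 21.1 CPM in the control and 66.1 CPM after TGF-β1 (log2 ratio 1.65, 1.60 to 1.70). It was detected in 27.6% of control cells (26.2 to 29.0%) and 60.6% of TGF-β1 cells (59.2 to 62.1%), and was more than 2-fold higher in all 7 clusters. Since both carriers were higher, their mixture differed little. *CRABP2* made up 61.9% of the UMIs of *CRABP2* and *FABP5* in the control (61.1 to 62.8%) and 65.7% after TGF-β1 (65.3 to 66.2%).

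*RARG* (ENSECAG00000016596), the third retinoic acid receptor, was at 11.6 CPM in the control and 3.35 CPM after TGF-β1, from 2442 and 736 UMIs, a log2 ratio of -1.79 (-1.91 to -1.67). It was detected in 20.5% of control cells (19.3 to 21.9%) and 6.07% of TGF-β1 cells (5.39 to 6.81%), and was more than 2-fold lower in all 7 clusters. The summed level of *RARA*, *RARB* and *RARG* was 35.2 CPM in the control and 26.2 CPM after TGF-β1. *RARA* made up 65.7% of these UMIs in the control and 85.5% after TGF-β1 (84.5 to 86.4%), and *RARG* made up 33.0% and 12.8%.

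The other retinoid genes with a mean of 1 CPM or more were within 2-fold. Among the genes that interconvert or store retinol and retinal, 5 were higher and 6 lower with a median of -0.24, and the most abundant were *ADH5* (133 and 135 CPM) and the short-chain dehydrogenase *DHRS9* (58.4 and 63.0 CPM). For retinoic acid oxidation only *CYP1B1* passed 1 CPM, at 9.50 and 5.51 CPM, a log2 ratio of -0.79 (-0.89 to -0.68). Of 10 receptors and cofactors, 6 were higher and 4 lower, the most abundant being the corepressors *NCOR1* (164 and 149 CPM, log2 ratio -0.14) and *NRIP1* (43.4 and 60.4 CPM, log2 ratio 0.48). Of 9 genes known to respond to retinoic acid, 5 were higher and 4 lower, with a median of 0.04, and the most abundant were the homeobox gene *MEIS2* (166 and 146 CPM, log2 ratio -0.18) and *NRIP1*. A direction common to the responsive genes was not seen at the level of these libraries.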

How the data were processed

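The authors deposited, per library, UMI counts for each gene in each barcode called as a cell. They were obtained with Cell Ranger on EquCab3.0 and its Ensembl annotation (version 7.1.0 in the methods, 8.0.1 in the matrix headers) from 3′ tag libraries. The deposited counts were whole numbers without normalization. The filters of the study were applied here, but its doublet removal and assignment of cells to mares rest on genotypes from reads and were not repeated. Its differential expression analysis in edgeR was not run either. The effect of remaining doublets on co-detection was not tested.

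UMIs of kept cells were summed per library and scaled to CPM (Python 3.11.15, numpy 2.4.6, pandas 2.3.3 and scipy 1.17.1). Intervals are exact Poisson for CPM and exact binomial (Clopper-Pearson) for shares and ratios, at the 95% level. Log2 ratios have no pseudocount, and a gene needed more than 3 UMIs in at least 1 library to get one, or in each library within a cluster. The limit for a difference was 2-fold. Cells were thinned to 20000 UMIs without replacement. Clusters were rebuilt in Seurat 5.3.0 in R 4.3.3 (log normalization, 2000 variable genes without the members, 30 dimensions, canonical correlation integration, resolution 0.5, with 0.3, 0.8 and no integration as alternatives), and those with at least 50 cells of each library were compared. A cluster was called cycling-like where at least 3 cycling markers were more than 2-fold higher. The ratio script was tested on simulated counts. Figures were drawn in matplotlib 3.10.9.

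The members, lists and settings were chosen with earlier results of these data known. The text names the 9 members, in each other retinoid list the genes past 2-fold (at 1 CPM or more) and the 2 most abundant, with 1 exception that is not reported here, and the 3 most like genes of members found in at least 10% of cells, where a correlation reached 0.2. Gene coordinates and sequences are not given, since the reference at hand (RefSeq, assembly TB-T2T) differs from EquCab3.0. In it, 1 other gene overlaps *ALDH1A3*, 2 overlap *RARA* and 2 overlap *RARB*, and how reads of overlapping genes were divided is not given in the sources used here.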

Additional observations from a re-analysis of the deposited data

Results flagged for a closer look

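*STRA6* and *RARA* had ratios of opposite direction in different clusters, with intervals on opposite sides of 0. The log2 ratio of *STRA6* was 0.16 in the cycling-like cluster 5 (0.0046 to 0.32) and -0.35 in cluster 3 (-0.43 to -0.27). The log2 ratio of *RARA* was 0.49 in cluster 6 (0.09 to 0.88), from 100 control and 57 TGF-β1 cells, and -0.12 in cluster 1 (-0.24 to -0.0028). The differences between clusters were not tested, as each cluster held 1 library per treatment.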

How the results depend on the processing

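No paired analysis was possible because each group was 1 library whose cells were not assigned to mares here, and for the same reason no replicate could be left out. *CRABP2*, *CRABP1* and *CYP26B1* were past 2-fold and no other member was when all barcodes, at least 10000 UMIs, under 6% mitochondrial UMIs, removal of the 2% deepest cells, a median-of-ratios size factor, other totals, equal cluster shares or removal of cycling cells was used. Among members of 10 CPM or more the count was 1. As the mean of per-cell CPM the log2 ratio was -0.96 for *ALDH1A1* and 1.85 for *CRABP2*, and with equal cluster shares that of *CRABP2* was 1.83. The terciles by UMIs per cell were added after seeing the data. In the lowest, middle and highest tercile, the ratio was -1.80, -0.46 and -0.16 for *ALDH1A1*, 1.85, 1.79 and 1.98 for *CRABP2*, -0.16, -0.13 and 0.062 for *RARA*, and 0.51, 0.19 and 2.69 for *CYP26B1*. In the middle tercile it was -0.14 for *STRA6*, -0.37 for *ALDH1A2*, -0.72 for *ALDH1A3* and 1.03 for *CRABP1*, and in the highest tercile -0.49 for *ALDH1A3*. The causes were not tested. Of the other retinoid genes, 1 was past 2-fold at 10 CPM or more and 8 without a CPM minimum, with medians of 0.053 and -0.078. At resolution 0.8 the *CYP26B1* ratio could be given in 2 of 11 clusters and was -0.49 and 0.98, and *RARA* was higher in 4 and lower in 7. Without integration, 1 cluster held at least 50 cells of each library. Expected co-detection within clusters was also added after seeing the data, and for the 5 members found in at least 10% of cells all 60 alternative co-detection ratios stayed within the counting interval of the main value. Thinned to 10000 UMIs, the share of TGF-β1 cells minus that of control cells was -6.05 percentage points for *ALDH1A3* and -3.04 for *ALDH1A2*, and with 2 or more UMIs required it was -8.26 and -5.43. Depth limits *CYP26B1*, *CRABP1* and *RARB*, each under 1 CPM on average.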

Other observations

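Below 1 CPM, the retinol binding protein gene *RBP5* was lower after TGF-β1, at 0.931 CPM in the control and 0.109 CPM after TGF-β1, from 196 and 24 UMIs (log2 ratio -3.09, -3.77 to -2.48). *PPARD*, the nuclear receptor to which *FABP5* is known to deliver retinoic acid, was at 9.99 CPM in the control and 17.5 CPM after TGF-β1 (log2 ratio 0.81, 0.73 to 0.88), and higher in all 7 clusters. It was detected in 17.7% of control cells and 28.7% of TGF-β1 cells. The carotenoid-cleaving enzyme gene *BCO2* was at 1.99 and 1.06 CPM (log2 ratio -0.91, -1.15 to -0.67). *RBP5*, *PPARD* and *BCO2* are named because their values were seen, outside the rule for named genes.

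In control cells, *ALDH1A1* was found in 16.4% of the 116 cells without a UMI of the smooth muscle actin *ACTA2* (10.2 to 24.4%) and in 5.49% of the 3749 cells with it (4.79 to 6.27%). After TGF-β1, 9 cells held no *ACTA2*. *RARG* was found in 19.8% of control cells with *RARA* (17.8 to 22.0%) and 20.9% of those without (19.4 to 22.6%). *STRA6* was found in 66.4% of control cells with *RARG* (63.0 to 69.7%) and 59.1% of those without (57.3 to 60.8%), and after TGF-β1 in 66.8% (60.9 to 72.3%) and 58.4% (56.9 to 59.9%).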
